A study of Rattus norvegicus with 4 samples.

Results

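Transcripts of 68 mitochondrial ribosomal protein genes were measured in NR8383 cells, an alveolar macrophage line grown from lung washings of a normal rat. The genes are those with a rat symbol that begins with Mrpl or Mrps followed by a digit and with a spot on all 4 arrays. They make up 68 of the 16419 named genes measured on every array and are covered by 85 probes in 101 spots. All 4 samples were replicate cultures at 20 passages, grown for 48 h and then given the multi-walled carbon nanotube NRCWE006 for 4 h, at a particle surface of 1 cm2 for each cm2. They form 1 group, and every culture in it carries the exposure. Cultures without nanotubes were not analysed here, and an effect of the nanotubes cannot be read from any of the values. RNA of each culture was hybridised to 1 Agilent array in 1 colour, so that culture and array cannot be told apart, and 4 arrays limit the precision of every level.

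Mitochondria keep their own ribosome, which translates the few messengers of the mitochondrial genome into core subunits of the respiratory chain and ATP synthase. Its RNA is transcribed inside the organelle, whereas all of its proteins are encoded in the nucleus, made on cytosolic ribosomes and imported. Some of these proteins take the place of a bacterial ribosomal protein, and others, at sites with no bacterial counterpart, surround the smaller RNA core of the mammalian particle. In macrophages the respiratory chain that depends on this ribosome is known for its part in switching between inflammatory and resting metabolism.

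Of the macrophage markers checked, 4 of 12 measured genes were well above background on all 4 arrays. These were the lysosomal protein Cd68, the myeloid transcription factor Spi1, the lysozyme gene Lyz2 and the Fc receptor Fcgr1a. The pan-leukocyte marker Ptprc was called on 1 array and the integrin Itgam on none. No marker of lung epithelium (7 measured), fibroblasts (6), lymphocytes (3) or granulocytes (4) was detected on all arrays, and 1 of 5 endothelial markers, Vwf, was. Calls on replicate 4 only occurred in several of these lists, for the epithelial genes Krt8 and Sftpb, the endothelial gene Cdh5 and the macrophage receptor gene Marco, and the other 5 epithelial markers were called on no array. That array also had the most spots called non-uniform by the scanner software (656, against 9 to 34 on replicates 1 to 3). It had the most probes well above background (6476, against 4252 to 5722) as well. Its part in the results below was not tested. The counts of detected members and of members ranging over 2-fold are given with and without it. So is the range of each named gene that moved by more than its SD when it was left out. Counts by subunit, class, gene list and promoter are given with all 4 arrays only.

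Regulatory sequence is available for 55 of the 68 genes as RefSeq promoter windows of assembly GRCr8, which run from 250 bases before to 50 bases after the annotated start. The last 120 bases before the start are printed for 5 genes on which the results turn. Mrpl12 is the member printed most often on the array, Mrpl17 and Mrpl27 are detected members with motif matches of different kinds, Mrpl36 is a member with a wide range between cultures and Mrpl53 is a member with a narrow one. Capitals mark matches, on either strand, to CCGGAAG (ETS factors such as GABP), CGCATGCG (NRF1) or AAGATGGC (YY1), 3 motifs of factors known to bind promoters of nuclear genes for mitochondrial proteins. The sequences run 5′ to 3′ on the strand of the gene.
Mrpl12, chr10:106256626-106256745, plus strand: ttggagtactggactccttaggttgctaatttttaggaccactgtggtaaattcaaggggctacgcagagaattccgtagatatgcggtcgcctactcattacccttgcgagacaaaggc
Mrpl17, chr1:169575700-169575819, minus strand: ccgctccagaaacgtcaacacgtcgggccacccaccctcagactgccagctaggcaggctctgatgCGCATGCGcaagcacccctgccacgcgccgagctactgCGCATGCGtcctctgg
Mrpl27, chr10:80092225-80092344, plus strand: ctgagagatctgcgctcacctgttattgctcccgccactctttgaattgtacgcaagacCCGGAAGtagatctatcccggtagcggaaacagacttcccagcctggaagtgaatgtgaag
Mrpl36, chr1:31795122-31795241, minus strand: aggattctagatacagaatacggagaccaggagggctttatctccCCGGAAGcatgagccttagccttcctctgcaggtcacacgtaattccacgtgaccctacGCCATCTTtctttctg
Mrpl53, chr4:117172923-117173042, plus strand: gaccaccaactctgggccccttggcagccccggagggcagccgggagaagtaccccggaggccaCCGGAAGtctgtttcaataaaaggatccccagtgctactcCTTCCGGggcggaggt

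The first question was which of these transcripts were measurable in the exposed cells. A call on an array needed a probe with more than 50% of its unflagged spots well above background by the software's own flag, and a gene was detected when a probe had that call on all 4 arrays. Of the 68 genes, 34 (50.0%) were detected, against 1946 of 16419 named genes (11.9%). By probe, 36 of 85 (42.4%) were detected, against 2274 of 20867 named probes (10.9%). The number of probes per gene was close in both, at 1.25 for mitochondrial ribosomal protein genes and 1.27 for all named genes. In the probe that gave the gene its value, calls per array numbered 46, 43, 40 and 37 of 68 on replicates 1 to 4, against 21.0%, 17.6%, 15.8% and 20.1% of all named genes. Replicate 4, which called the most probes of all kinds, thus called the fewest of these genes. In a bulk sample such as this, less RNA per cell and fewer cells with a transcript cannot be told apart.

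The other 34 genes divided into those called on some arrays and those called on none. There were 6 genes called on 3 arrays, namely Mrpl10, Mrpl13, Mrps11, Mrps17, Mrps30 and Mrps35, and in the probe that gave the value the array without a call was replicate 4 for each of them. Mrps11 had a second probe that was called there. Mrpl52, Mrps23 and Mrps33 were called on replicates 1 and 2, and Mrpl1, Mrpl4 and Mrps34 on replicate 1 alone. Mrpl49, Mrps5 and Mrps27 were called on replicate 4 alone. The remaining 19 genes had no call on any array: Mrpl3, Mrpl15, Mrpl16, Mrpl18, Mrpl19, Mrpl21, Mrpl35, Mrpl42, Mrpl46, Mrpl47, Mrpl50, Mrpl51, Mrps2, Mrps14, Mrps15, Mrps18b, Mrps21l, Mrps22 and Mrps31. All of these except Mrps21l, an Mrps21-like entry, encode known components of the mammalian particle.

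**Figure D1:**
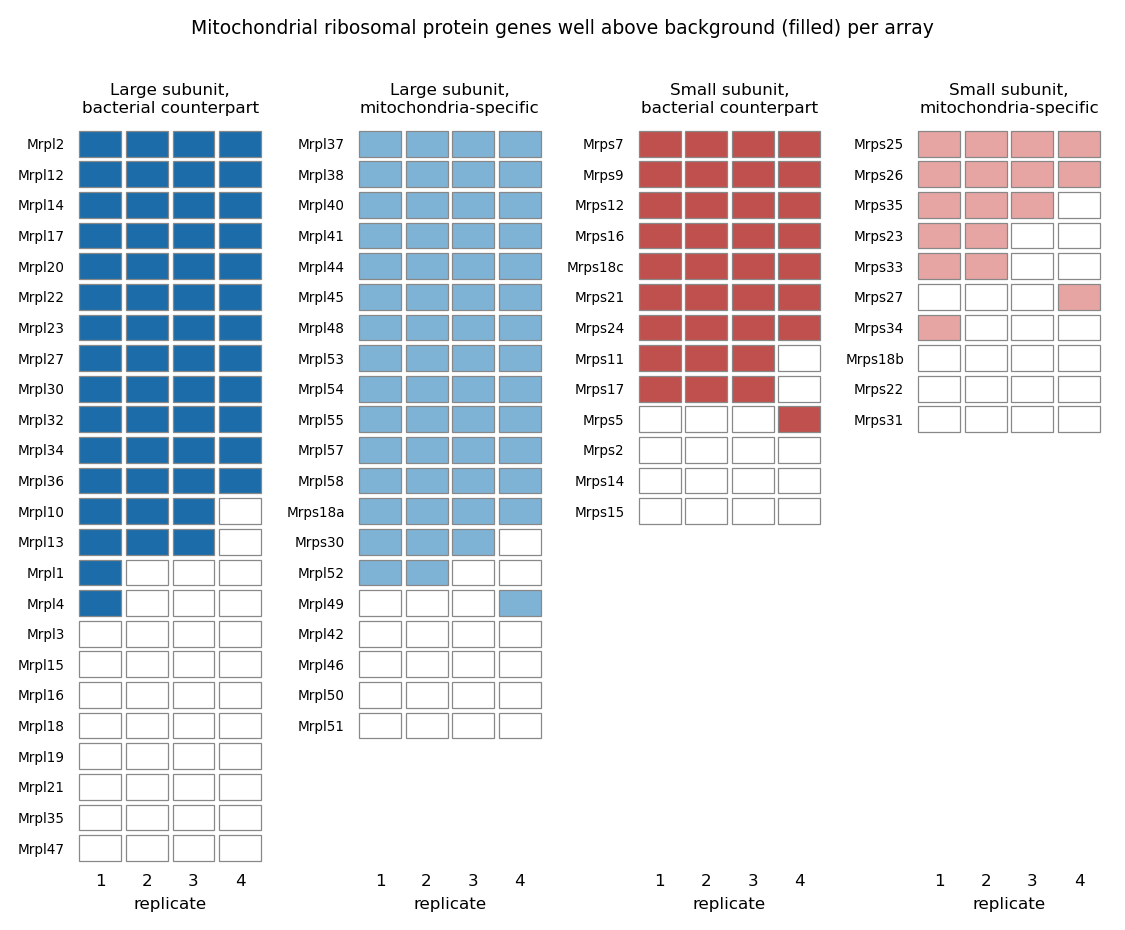
Calls of 67 mitochondrial ribosomal protein genes (vertical axis, ordered by the number of arrays) on replicates 1 to 4 (horizontal axis), in panels by subunit and evolutionary class, with a filled box where the probe that gave the gene its value was well above background; Mrps21l, which has no class here and was called on no array, is left out. Filled rows across all 4 arrays number 12, 13, 7 and 2 from left to right, and all 6 genes with 3 filled boxes lack replicate 4 in the probe shown, although a second probe of Mrps11 was called there.

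Of the 40 members called on each of replicates 1 to 3, 6 (15.0%) were not called on replicate 4, against 493 of 2439 named genes (20.2%). Of the 22 called on none of these 3 arrays, 3 (13.6%) were called on replicate 4, against 9.24% of 12838 named genes. These 3 genes were picked out after their values were seen. Mrpl49, a protein of the large subunit without a bacterial counterpart, had processed signals of 3.71, 3.01, 3.53 and 109 on replicates 1 to 4. Mrps5, which lines the channel through which messenger RNA enters the small subunit, had 5.87, 3.19, 3.23 and 24.4. Mrps27, a pentatricopeptide repeat protein of the small subunit, had 6.28, 3.49, 4.94 and 32.6. A call on replicate 4 alone was the condition for picking these 3, so their high value there is no separate result. Negative control spots had a median of 2.98 to 3.36 on replicates 1 to 3 and 4.61 on replicate 4. Their 95th percentile was 4.0, 3.48 and 3.99 on replicates 1 to 3. Mrpl49 lay below it on these 3 arrays, whereas Mrps5 on replicate 1 and Mrps27 on replicates 1 to 3 lay above it. The epithelial keratin gene Krt8 had 3.14, 2.85, 3.14 and 137, and the macrophage gene Marco had 3.87, 3.27, 3.21 and 68.8. Both are given because their only call was on replicate 4, so their direction was fixed by that choice too.

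By subunit, 25 of 44 large-subunit genes (56.8%) and 9 of 23 small-subunit genes (39.1%) were detected. Mrps18a and Mrps30 are counted in the large subunit, where their proteins sit in spite of their symbols. Classes are those assigned here, with Mrpl55 placed among the mitochondria-specific genes. They were not checked against protein sequences, and the counts by class rest on them. Among genes with a bacterial counterpart 19 of 37 (51.4%) were detected, and among those specific to mitochondria 15 of 30 (50.0%). Within the large subunit the numbers were 13 of 20 mitochondria-specific genes (65.0%) and 12 of 24 with a bacterial counterpart (50.0%). Within the small subunit they were 2 of 10 (20.0%) and 7 of 13 (53.8%). Detection was thus least frequent in the mitochondria-specific genes of the small subunit, a class of 10, and the difference between classes was not tested.

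The large-subunit genes with a bacterial counterpart that were detected include proteins of the stalk, the tunnel exit and the catalytic centre. Mrpl12, the homologue of the bacterial stalk protein that contacts elongation factors, was printed 10 times on each array. Its processed signals were 518, 441, 338 and 255 on replicates 1 to 4, and its levels were 0.43, 0.65, 0.52 and 0.19 on the log2 scale. A level is the log2 processed signal minus the log2 of the array's 75th percentile over detected probes, so that 0 stands for that percentile. Replicate 4 was the lowest and replicate 2 the highest, with an SD of 0.19 over the 4 arrays. Mrpl10, which anchors the stalk proteins to the ribosome in bacteria, was called on replicates 1 to 3 only.

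Mrpl17, Mrpl22 and Mrpl23 are proteins of the tunnel exit, where the growing chain leaves the ribosome. Mrpl17 had levels of 0.03, -0.10, 0.24 and 0.04 (SD 0.14). Mrpl23 had levels of 0.12, 0.31, 0.26 and 0.25 (SD 0.08), with replicate 1 the lowest. Mrpl27, which reaches towards the peptidyl transferase centre in bacteria, had levels of -0.93, -0.72, -0.81 and -0.76 (SD 0.09). Between arrays these 3 genes differed by 1.26-fold, 1.14-fold and 1.16-fold, in the same order.

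Mrpl36, a small protein of the large subunit, was the member of this class with the widest range, 2.34-fold. Its levels were -1.91, -2.27, -1.90 and -3.12 (SD 0.57). Replicate 4 was well below the other 3, and without it the range was 0.40 on the log2 scale. A second probe of Mrpl36, called on 3 arrays, had levels of -3.36, -2.90, -3.0 and -3.57, with replicate 4 again the lowest but close to replicate 1. Mrpl32, which is cut by a protease of the inner membrane before it joins the ribosome, went the other way, with levels of -2.01, -2.05, -2.0 and -1.32 (SD 0.35). Its first 3 arrays lay close together and replicate 4 was above their mean by 0.70, but at -0.87 from it with the 75th percentile over all gene probes. Without replicate 4 its range was 0.09. Mrpl34 had levels of -1.76, -1.97, -2.01 and -2.36 (SD 0.25), the lowest again on replicate 4, and a range of 0.60 with that array and 0.30 without it. Mrpl30 had levels of -2.09, -1.99, -2.19 and -2.35 (SD 0.15).

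Among the 34 detected members, the widest range, 3.25-fold, belonged to a mitochondria-specific gene of the large subunit. Mrpl38, a protein of the central protuberance that faces the small subunit, had processed signals of 74.6, 49.9, 49.9 and 129. Its levels were -2.36, -2.49, -2.24 and -0.79 (SD 0.79), and replicate 4 was 2.98-fold above the mean of the other 3. Without replicate 4 its range was 0.24 on the log2 scale, so the width rests on that array. The detected genes Mrpl40 and Mrpl48, also of the protuberance, did not share this pattern. Mrpl40 had levels of -1.83, -2.11, -1.93 and -1.77 (SD 0.15), and Mrpl48 had -1.14, -0.99, -1.23 and -1.24 (SD 0.12). Mrpl46, of the same region, was called on no array.

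Mrpl58, a peptidyl-tRNA hydrolase that frees stalled ribosomes and is itself built into the large subunit, had levels of -0.66, -0.92, -1.11 and -1.44 (SD 0.33). Mrpl55 had levels of -2.57, -2.04, -2.89 and -2.72 (SD 0.37), with replicate 2 above the rest. Mrpl53 was the steadiest of the class at -0.76, -0.81, -0.85 and -0.73 (SD 0.05). The 4 cultures thus gave nearly the same value for Mrpl53, whereas Mrpl58 and Mrpl55 spread over 1.72-fold and 1.80-fold.

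Of the small subunit, Mrps16, a bacterial-type protein of the body, had levels of -0.32, -0.35, -0.29 and -0.35. Its SD of 0.03 was the lowest among the 34 detected members. Mrps12, the homologue of the decoding-centre protein that sets the accuracy of translation in bacteria, had levels of -1.98, -1.93, -1.84 and -1.71 (SD 0.12), and its range was 0.27 with replicate 4 and 0.09 without it. Mrps9, whose tail reaches the peptidyl-site tRNA in bacteria, had levels of -2.99, -3.51, -2.84 and -2.83 (SD 0.32), with replicate 2 apart below. The first 2 of these genes differed between arrays by 1.05-fold and 1.21-fold, and Mrps9 by 1.61-fold.

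Mammals have 3 proteins related to bacterial ribosomal protein S18, of which 2 were detected. Mrps18c takes its place in the small subunit, whereas Mrps18a and Mrps18b sit at sites of their own and are counted here as mitochondria-specific. Mrps18c had levels of -2.70, -2.38, -2.73 and -2.30 (SD 0.22). Mrps18a, in the large subunit, was detected with levels of -1.66, -1.52, -1.99 and -1.89. Mrps18b was called on no array. The probes differ in sequence, so their signals do not rank the 3 genes. Mrps21, the homologue of the small bacterial protein S21, ranged over 2.01-fold with levels of -2.27, -1.49, -2.49 and -1.68 (SD 0.48). Replicates 2 and 4 were the higher pair.

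Mrps25 and Mrps26 were the detected mitochondria-specific genes of the small subunit. Mrps25 had levels of -0.59, -0.62, -0.78 and -1.23 (SD 0.29), and Mrps26 had -0.88, -0.88, -1.19 and -1.45 (SD 0.28). The range of Mrps25 was 0.64 with replicate 4 and 0.24 without it. Both were lowest on replicate 4, with nearly equal values on replicates 1 and 2. Mrps23, Mrps33 and Mrps35 of the same class were called on replicates 1 and 2 but not on replicate 4. Processed signals of Mrps23 were 44.4, 23.4, 13.5 and 5.33, and those of Mrps33 were 36.8, 26.5, 16.8 and 5.05, at about the level of the negative controls on replicate 4.

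The spread between the cultures was compared with that of all detected genes. The median SD over the 4 arrays was 0.191 for the 34 detected members (range 0.0309 to 0.794), against 0.241 for all 1946 detected genes. With no scaling these medians were 0.458 and 0.456, and with the 75th percentile over all gene probes 0.862 and 0.851. The median ratio of the highest to the lowest array was 1.33-fold in the main setting, against 1.45-fold. Only Mrpl36, Mrpl38 and Mrps21 ranged over 2-fold, which is 3 of 34 (8.82%), against 297 of 1946 detected genes (15.3%). Without replicate 4 the count was 1 of 40 detected members (2.5%), Mrps21, against 3.66% of detected genes, which is near the background. With all 4 arrays the share of members was the lower one, but it rests on 3 genes, and Mrps21 passed only at 2.01-fold. The contrast depended on the scaling: with none the share was 52.9% of members and 52.8% of genes, with the 75th percentile over all gene probes 97.1% and 92.8%, with quantile normalization 29.4% and 39.9%, and with normexp background correction 0 members and 2.0% of genes.

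By array, the level minus the mean of the other 3 arrays had a median over members of 0.03, 0.07, -0.04 and -0.10 on replicates 1 to 4, against 0.05, 0.00, 0.01 and -0.07 over all detected genes. Higher than the mean of the other arrays were 20 members on replicate 1, 22 on replicate 2 and 15 on replicate 3, against 56.2%, 50.7% and 50.9% of detected genes. On replicate 4, 14 members were higher than the mean of the other arrays and 20 lower, against 43.4% of detected genes higher. The members higher there numbered 1 with the percentile over all gene probes, 4 with no scaling, 7 with quantile normalization and 20 with normexp, against 1.64%, 18.1%, 24% and 61.9% of genes. Replicate 4 was the lowest array for 14 of 34 members, against 39.6% of genes, and the highest for 9, against 30.1%. The lowest value fell on replicates 1, 2 and 3 in 5, 7 and 8 members (19.9%, 18.3% and 22.2% of genes), and the highest in 11, 9 and 5 (27.8%, 19.0% and 23.2%). A single array stood apart from the other 3 by Dixon's criterion in 5 of 34 members, against 7.66% of detected genes, and in all 5 it was replicate 4. Which array stood apart was not counted for the genes at large, so that last number has no background. The median on replicate 4 was -1.67 over members with the percentile over all gene probes, -0.50 with no scaling and -0.29 with quantile normalization, and its sign turned, to 0.05, with normexp. Over all detected genes these settings gave -1.64, -0.47, -0.46 and 0.08. Relative to all genes the members thus lay at -0.03 in 3 of these 4 settings and at 0.16 with quantile normalization. The percentile over all gene probes and no scaling each shift every gene on an array alike. These settings therefore could not change the difference between members and genes.

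**Figure D2:**
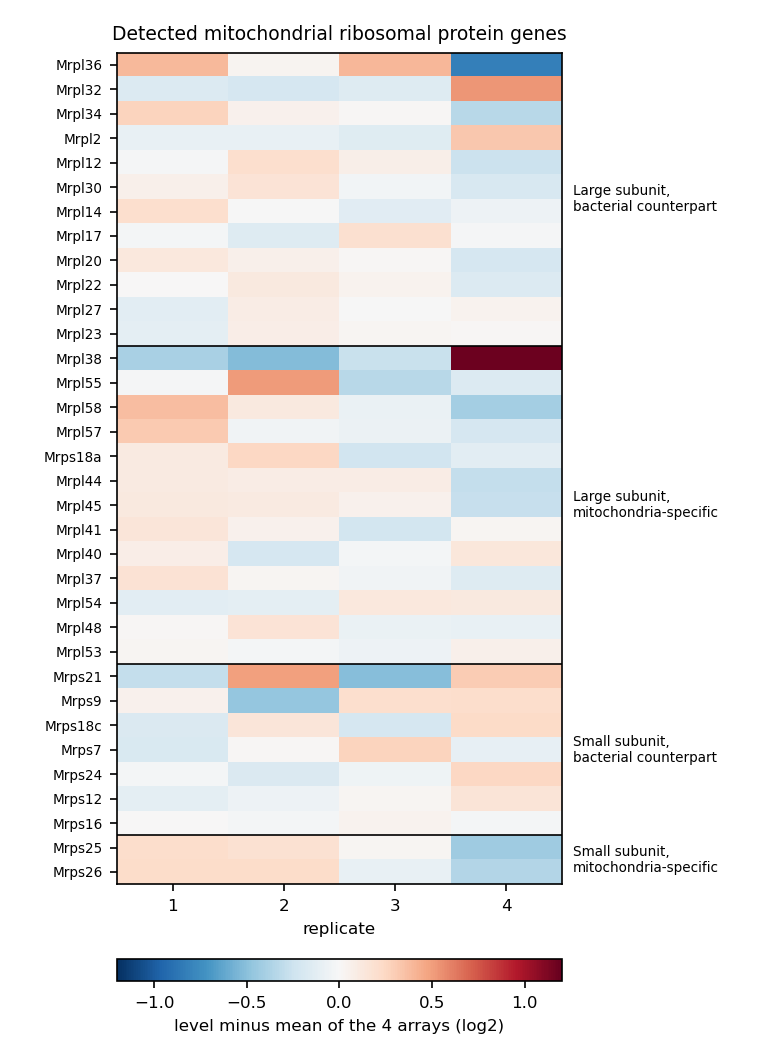
Level of each detected mitochondrial ribosomal protein gene (vertical axis, by class and, within a class, by SD) on replicates 1 to 4 (horizontal axis), as the difference from the mean of its 4 arrays on the log2 scale (colour, red higher and blue lower). Most boxes are pale, and Mrpl38 (red) and Mrpl36 (blue) on replicate 4 are the deepest; under scaling to the 75th percentile over all gene probes Mrpl38 on replicate 4 differs from the mean of the other arrays by 0.01.

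The 3 wide genes were followed through the scaling alternatives as the log2 level on replicate 4 minus the mean of the other arrays. For Mrpl38 this difference was 1.57, and it was 1.17 with no scaling, 1.39 with quantile normalization, 0.85 with normexp and 0.01 with the 75th percentile over all gene probes. For Mrpl36 it was -1.10, -1.49, -2.40, -0.17 and -2.66 in the same order. For Mrps21 it was 0.41, 0.01, -0.09, 0.14 and -1.16. The sign was therefore the same under these 5 settings for Mrpl36 and Mrpl38, at almost no difference for Mrpl38 in the last of them, and it turned for Mrps21.

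Pairs of arrays were compared over the 34 detected members as a description, since genes are not independent replicates. Pearson's r was 0.949 to 0.978 among replicates 1 to 3 and 0.872 to 0.894 between each of these and replicate 4. Over all 1946 detected genes it was 0.975 to 0.981 and 0.924 to 0.936. The median absolute difference over members was 0.130 to 0.142 among replicates 1 to 3 and 0.211 to 0.311 with replicate 4. Members, like genes at large, differed most on the pairs that include replicate 4.

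The noise between spots of an array can be read from probes printed more than once, whereas 28 of the 34 detected members rest on 1 spot per array. Mrpl12 had 10, 9, 10 and 8 unflagged spots, with an SD between spots of 0.111, 0.166, 0.202 and 0.114 on replicates 1 to 4. Its array means ranged over 0.46 on the log2 scale, or 1.37-fold. The 4 arrays differed beyond this spot noise in the moderated F test of limma (adjusted p = 1e-05, 37 spots, over 1350 probes with at least 3 unflagged spots on each array). Such a call was the rule on these arrays, with 1093 of the 1350 probes (81.0%) called, and 529 of the 709 detected ones (74.6%). Of those 709, 39.6% had a range at least as large as that of Mrpl12. Without replicate 4 the range of Mrpl12 was 0.18 and the limma adjusted p was 0.076. The p-value measures the spread between spots, not between cultures.

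**Figure D3:**
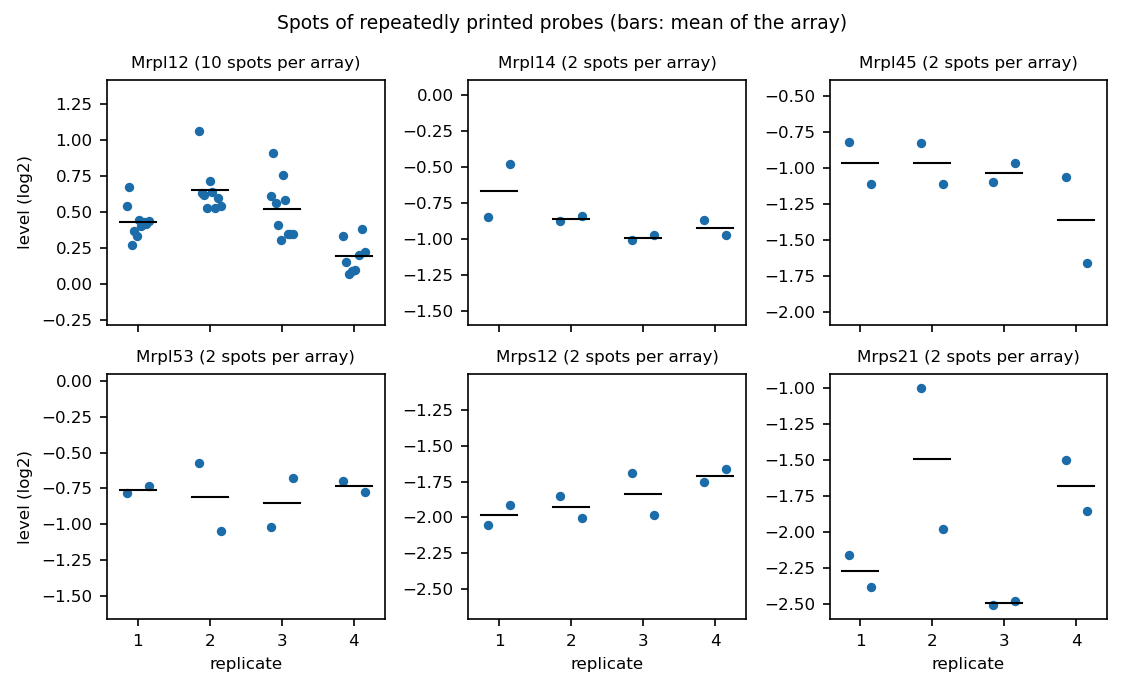
Level of each unflagged spot (vertical axes, log2 relative to the 75th percentile over detected probes) on replicates 1 to 4 (horizontal axes) for 6 detected mitochondrial ribosomal protein genes printed 10 or 2 times per array, with a bar at the mean of the array. The spots of Mrpl12 on replicate 4 all lie below those on replicate 2, and the 2 spots of Mrps21 on replicate 2 are 0.98 apart.

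The 6 detected probes printed 2 times gave 24 pairs of spots. The gap between the spots of a pair had a median of 0.14 and a range of 0.03 to 0.98, against a median range between arrays of 0.36 for the same probes. In 2 of the 6 probes the range between arrays exceeded the widest gap between spots, and in the other 4 it did not. The widest gap belonged to Mrps21, whose spots on replicate 2 read 71.2 and 141, a 1.98-fold difference within an array. The range of the gene between arrays was 2.01-fold. For Mrpl13, the call missing on replicate 4 came with spots of 13.4 and 31.6. Mrpl53 and Mrps12 ranged over 0.11 and 0.27 between arrays, below the widest gap between their own spots (0.47 and 0.30).

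Where a gene had several probes, they often did not agree on whether it was measurable. Of the 7 detected members with more than 1 probe, 4 (57.1%) had a probe called on no array, against 46.6% of 579 detected genes with several probes. These were Mrpl17, Mrpl30, Mrpl40 and Mrps21. Mrpl30 has 5 probes, of which 1 was detected, 1 was called on 3 arrays and 3 on none. Signals of the second probe of Mrpl17 were 3.36, 2.77, 3.01 and 5.43, while those of the detected probe were 391, 263, 278 and 230. The probes of Mrps11 went opposite ways, with signals of 55.6, 30.7, 27.6 and 17.8 for one, not called on replicate 4, and 18.8, 18.5, 12.1 and 45.5 for the other, not called on replicate 3. Whether a gene counted as detected thus depended on its probes, and 55 of the 68 members have only 1. By contrast, both probes of Mrpl41 and of Mrpl45, a protein that ties the ribosome to the inner membrane, were detected. RefSeq lists pseudogenes or like-named copies for 22 of the 68 members, 14 of them detected, and the probes cannot be assumed to tell these apart from the gene.

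Related gene families were counted by the same rule. Mitochondrial ribosomal proteins were detected in 34 of 68 (50.0%), against 78 of 87 cytosolic ribosomal proteins (89.7%) and 62 of 74 subunits of the respiratory chain and ATP synthase (83.8%), whose core the mitochondrial ribosome makes. The members thus lay below both families and above the 11.9% of all named genes. Their median SD of 0.191 stood between that of the cytosolic ribosomal proteins (0.172) and that of the respiratory chain (0.212). On replicate 4 the median deviation was -0.10 for the members, against 0.09 for cytosolic ribosomal proteins and -0.10 for the respiratory chain. Over 2-fold ranged 3 of 34 members, against 0 of 78 and 4 of 62 genes of the same families. These differences between families were not tested.

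Proteins of the particle that carry other names were detected in 4 of 6, namely Chchd1, Aurkaip1, Gadd45gip1 and the membrane insertase Oxa1l, which binds the ribosome at the inner membrane. Chchd1 had levels of -1.85, -1.78, -1.46 and -2.28. Aurkaip1 had levels of -0.55, -0.51, -0.62 and -0.48, and Gadd45gip1 had -0.88, -0.36, -0.69 and -0.69. Dap3, a GTP-binding protein of the small subunit, and Ptcd3, a pentatricopeptide repeat protein, were each called on 1 array.

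Few of the factors that work on the ribosome were detected. Among translation factors 1 of 12 was detected (8.33%), the elongation factor Tufm, which brings aminoacyl-tRNA to the ribosome. Its levels were 0.07, -0.02, -0.21 and -0.25. Of the proteins that assemble the ribosome or modify its RNA, 2 of 23 (8.70%) were detected. The pseudouridine synthase Trub2 had levels of -1.97, -1.65, -1.72 and -1.79, and the inner-membrane assembly factor Mpv17l2 had -2.32, -1.85, -2.12 and -1.83. Both shares were near the 11.9% of all named genes, and their difference from the structural proteins was not tested.

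Among genes of mitochondrial transcription and RNA metabolism 2 of 18 (11.1%) were detected. Tbrg4, an RNA-binding protein of the FASTK family, had levels of -1.96, -2.26, -2.61 and -1.86. Hsd17b10, a subunit of mitochondrial RNase P, had levels of -0.62, -0.32, -0.31 and -0.38. Of the mitochondrial aminoacyl-tRNA synthetases 1 of 17 (5.88%) was detected, Gars1, which serves the cytosol as well, with levels of 1.60, 1.43, 1.46 and 1.19. Of 10 regulators of nuclear genes for mitochondria only the orphan receptor Esrra was detected (10.0%), with levels of -2.39, -2.60, -2.65 and -3.04. These shares, like those of the translation factors, rest on 1 or 2 detected genes.

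The mitochondrial unfolded protein response and the import machinery had 10 of 19 genes detected (52.6%): Hspe1, Lonp1, Atf4, Ddit3, Timm23, Tomm20, Tomm22, Tomm70, Pmpcb and Trap1. Hspe1, the co-chaperonin of the matrix, had levels of 0.75, 0.79, 0.75 and 0.45. Lonp1, a matrix protease, had levels of -1.95, -1.96, -2.0 and -1.51. Atf4, the transcription factor of the integrated stress response, had levels of -0.74, -1.15, -1.09 and -0.84. Pmpcb, a subunit of the peptidase that removes import signals, ranged over 2.05-fold, with 0.16, -0.05, -0.10 and -0.88. It was the only 1 of these 10 detected genes over 2-fold, and its low value fell on replicate 4.

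**Figure D4:**
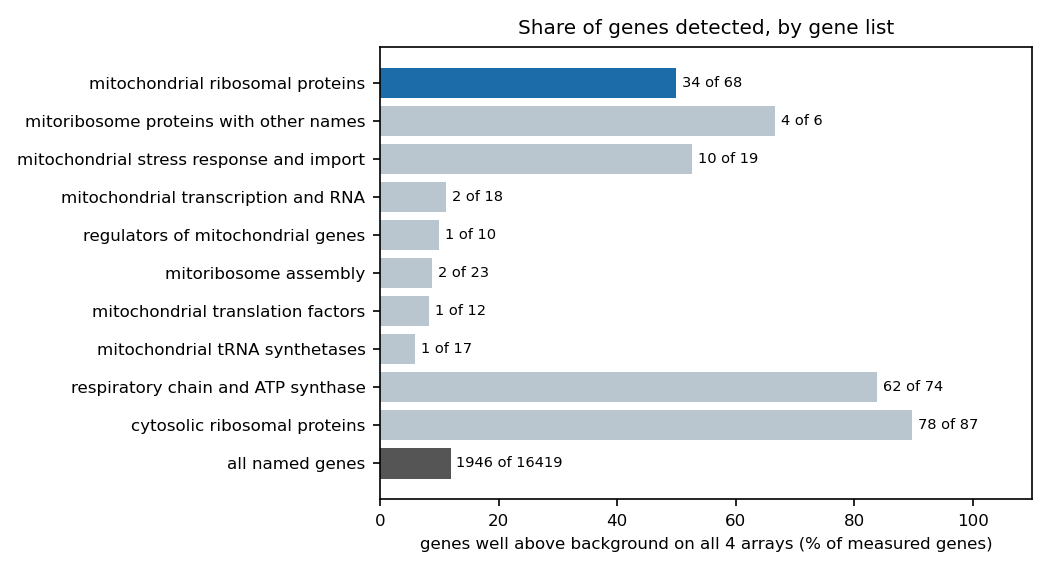
Share of measured genes detected on all 4 arrays (horizontal axis, percent) for mitochondrial ribosomal proteins, 9 related lists and all named genes (bars, with the counts beside them). Mitochondrial ribosomal proteins stand at 50.0%, respiratory chain and cytosolic ribosomal protein genes lie higher at 83.8% and 89.7%, and translation factors, assembly factors, RNA metabolism, regulators and tRNA synthetases lie near the 11.9% of all named genes, at 5.88% to 11.1%.

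The promoter windows were searched on both strands for the 3 motifs that the printed sequences mark. The ETS motif CCGGAAG was found in 19 of 55 members' windows (34.5%), against 9.22% of all 27457 promoters and 22.3% of the 1647 windows of detected named genes. The NRF1 motif CGCATGCG was found in 6 (10.9%), against 1.81% and 4.80%. The YY1 motif AAGATGGC was found in 13 (23.6%), against 3.44% and 7.59%. At least 1 of the 3 was present in 31 windows (56.4%), against 13.3% of all promoters and 30.5% of those of detected genes. Windows of respiratory chain and ATP synthase genes had a match in 46.3% and those of cytosolic ribosomal proteins in 36.2%. By motif (ETS, NRF1 and YY1), the respiratory chain windows stood at 29.9%, 10.4% and 20.9%, close to the members. Those of cytosolic ribosomal proteins stood at 29.0%, 1.45% and 7.25%. The median GC content was 56.3% for the members and 52.3% for all promoters. It was higher than in the members for named genes on the array (57.7%) and for detected named genes (60.3%). A match is a run of letters and shows no binding, and these shares were not tested.

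Motif matches occurred among detected and undetected members alike. A match was present in 19 of the 31 windows of detected members (61.3%) and in 12 of the 24 windows of members that were not detected (50.0%). The NRF1 letters occur in both places of the printed Mrpl17 window, 54 and 16 bases before the start. Mrpl36, whose level was lowest on replicate 4, holds an ETS match 75 bases and a YY1 match 16 bases before the start, and the steady Mrpl53 holds ETS matches at 56 and 16 bases. No match to any of the 3 is in the window of Mrpl12. Of the 13 genes with a YY1 match, 10 had it after the start, at bases 1 to 30 counted from the start: Mrps18a, Mrpl37, Mrps7, Mrpl49, Mrps30, Mrpl42, Mrpl46, Mrpl50, Mrps18b and Mrps27.

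**Figure D5:**
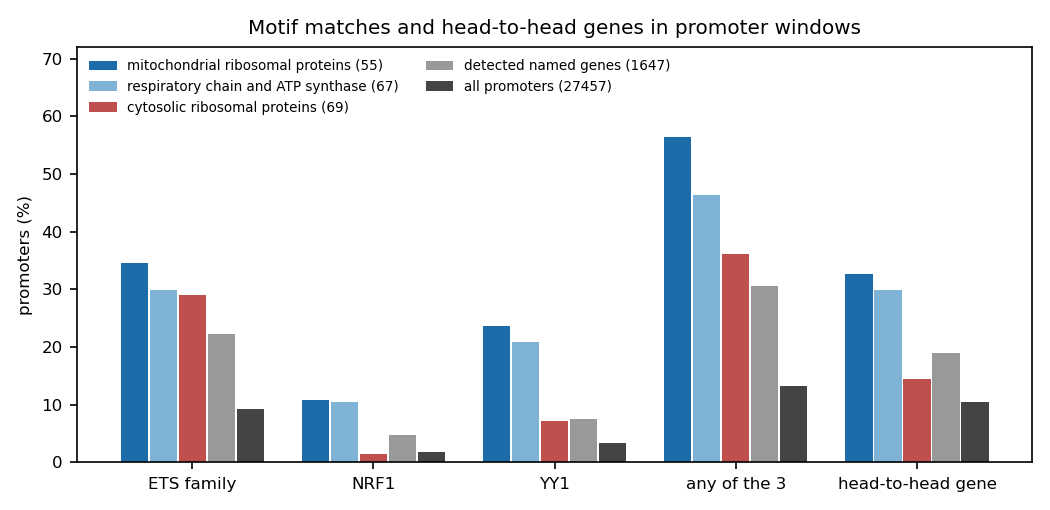
Share of promoter windows (vertical axis, percent) with a match to the ETS, NRF1 or YY1 motif, with any of these, and with a head-to-head gene, for mitochondrial ribosomal proteins, respiratory chain and ATP synthase, cytosolic ribosomal proteins, detected named genes and all promoters (bars, with the number of windows in the legend). Mitochondrial ribosomal proteins have the tallest bar in each of the 5 groups, 34.5%, 10.9%, 23.6%, 56.4% and 32.7%. Respiratory chain and ATP synthase come next, at 29.9%, 10.4%, 20.9%, 46.3% and 29.9%.

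Many of these genes start back to back with a neighbour. For 18 of the 55 members (32.7%), a gene on the opposite strand started within 1000 bases upstream, against 10.4% of all promoters and 19.0% of those of detected genes. The share was close to this, 29.9%, for respiratory chain and ATP synthase genes, and 14.5% for cytosolic ribosomal proteins. The arrays measured 14 of the 18 partners. Among them, 4 partners were detected, against 21.4% of the partners of all 948 named genes with a measured partner, so the count was near the background. They were Tcp1 beside Mrpl18, Ndufb5 beside Mrpl47, Fau beside Mrpl49 and Ppp1r10 beside Mrps18b. Of the 7 detected members with a measured partner, 0 had a detected partner, against 23.6% of 203 detected genes, a difference that was not tested and rests on 7 genes. Mrpl27 starts 44 bases from the DNA endonuclease gene Eme1, and its own levels are given above. Mrpl46 and Mrps11 start 234 bases from each other. Mrps11 was called on 3 arrays and Mrpl46 on none.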

How the data were processed

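Per the labels' protocols, RNA of 4 exposed NR8383 cultures was labelled with Cy3 and hybridised in 1 colour to Agilent arrays. Per the file headers, the deposited values are linear spot intensity from the scanner. The processed signal is the intensity after background subtraction by Agilent Feature Extraction 11.0.1.1, per the submitters' processing notes. It is not scaled between arrays. Deposited median signal and median background intensity served 1 alternative, and the deposited flags were used as written.

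The 4259 control spots and all spots flagged as non-uniform or population outliers on an array were left out (546 to 1296 gene spots). Log2 processed signals of a probe's spots were averaged, and the array's 75th percentile over detected probes was subtracted. On replicates 1 to 4 that percentile was a signal of 384, 281, 236 and 223. None of the gene spots was saturated. A gene took its value from its detected probe with the highest mean, or otherwise from the probe called on the most arrays. Accessions were named through the RefSeq table of GRCr8, which named 21109 of 45598 probes.

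The test over spots used limma 3.58.1 in R 4.3.3, with Benjamini-Hochberg adjustment, and was tested on simulated data. The rest used Python 3.11.15, numpy 2.4.6 and pandas 2.3.3. Promoter windows and motifs were matched by gene symbol to RefSeq sequences of GRCr8. Members and lists were chosen with earlier results of these data known. Values on all arrays were given for 21 members. They are, in each class, the 3 with the largest and the 2 with the smallest SD among detected genes, and every gene over 2-fold, printed 10 times or with a probe on no array. Other members were named singly, with values, after these were seen. Alternatives covered the detection rule, the number of arrays, the spot filter, scaling, background correction, the probe of a gene, the dim filter and leaving out each replicate.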

Additional observations from a re-analysis of the deposited data

Results flagged for a closer look

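In 5 of the 34 detected members (14.7%), 1 array lay far from the other 3 by Dixon's criterion, against 149 of 1946 detected genes (7.66%). Chance meets this criterion in about 1 of 20 groups. In all 5 the array apart was replicate 4, but the share of genes with that array apart was not counted. Mrpl38 stood at -0.79 on replicate 4, Mrpl32 at -1.32 and Mrpl2 at -1.96, each above its other 3 arrays. Mrpl44, which carries an RNase III-like fold, stood at -3.15 on replicate 4, against -2.75, -2.77 and -2.77 on replicates 1 to 3. Mrpl45 stood at -1.36, against -0.96, -0.97 and -1.03. The 2 spots of that probe on replicate 4 were 0.59 apart, and the other detected probe of Mrpl45 read -1.71 on replicate 4, against -1.44, -1.23 and -1.71. Mrpl49, at -1.04 on replicate 4, and Mrps5, at -3.19, meet the criterion too, but they had a call on that array alone, so their high value there was a condition of being measured and is not counted. With the 75th percentile over all gene probes, the difference of replicate 4 from the mean of the other arrays turned to -0.87 for Mrpl32 and -1.14 for Mrpl2. With quantile normalization it was -0.24 for Mrpl2. What sets replicate 4 apart in these genes was not tested.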

How the results depend on the processing

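No paired analysis was possible because all 4 samples belong to 1 group. The count of 34 detected members was 46 with negative control spots as the rule (67.6%, against 21.5% of named genes), 40 with at least 3 arrays (58.8%, against 15.5%) and 34 with all spots kept. It was 34 to 40 when a replicate was left out, the highest without replicate 4 (40, or 58.8%, against 14.8% of named genes). All 34 were retained with the negative control rule and with all spots kept. With at least 3 arrays, or with a replicate left out, they are retained by construction. The count over 2-fold, 3, was 8 with the negative control rule (against 35.6% of genes), 6 with at least 3 arrays (24.7%), 33 with the percentile over all gene probes (92.8%), 18 with no scaling (52.8%), 10 with quantile normalization (39.9%), 0 with normexp (2.0%) and 23 with no filter on dim probes (72.6%). It was 1 to 3 when a replicate was left out, the lowest without replicate 4. The median SD of 0.191 was 0.862 with the percentile over all gene probes, 0.458 with no scaling, 0.120 with normexp and 0.352 with no dim filter. The same medians over genes were 0.851, 0.456, 0.167 and 0.551, against 0.241 in the main setting. Members were thus not below genes with the percentile over all gene probes or with no scaling. When a replicate was left out the median SD of members was 0.159 to 0.206. The median deviation on replicate 4, -0.10, was -1.67 with the percentile over all gene probes and -0.50 with no scaling, where all detected genes stood at -1.64 and -0.47. It was 0.05 with normexp. Relative to all genes it was 0.16 with quantile normalization, -0.10 with the negative control rule and -0.83 with no dim filter, against -0.03. The limma call for Mrpl12 held under every alternative except without replicate 4 (0 calls, adjusted p = 0.076). An offset of 50 shrinks differences by its construction; other causes were not tested. Of the 21 ranges of named genes, 20 moved by more than 1 SD with the percentile over all gene probes, 16 with no scaling, 8 with quantile normalization, 7 with normexp and 7 without replicate 4. Dimmer genes tended to have the larger SD, among members and genes at large alike. Spearman's rho of level and SD was -0.507 over the 34 detected members and -0.399 over all 1946 detected genes, as a description. Members on no array had median signals of 3.48 to 4.86 and highest signals of 12.9 to 24.1, and 4 of them, Mrpl19, Mrpl21, Mrpl46 and Mrps31, passed the negative control rule on all arrays.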
